A study of Mus musculus with 27 samples.

Results

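The glycolysis and lactate genes were taken by symbol from a list of 34 covering glucose uptake, the enzymes from hexokinase to pyruvate kinase, the phosphofructokinase/fructose-bisphosphatase family, lactate dehydrogenase, lactate transport, the pyruvate dehydrogenase kinases and Hif1a. Of these symbols, 33 were found among the 23604 genes of the deposited expression table. The other, Pkm2, is an alternative name of Pkm, which the table lists. The list was set by pathway and not by a threshold on a measured value.

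RNA-seq was carried out on 19 libraries of mouse pluripotent cells, all labelled wild type. Naive mouse embryonic stem cells (mESCs, 2 libraries) were grown without feeders on gelatin in N2B27 with 2i/lif. Epiblast-like cells (EpiLCs, 2 libraries) and Epiblastoids (1 library on each of days 2, 3 and 4, embedded in Matrigel) were made from mESCs in N2B27 with Activin A, bFgf2 and 1% KSR. Epiblast stem cells (EpiSCs, 2 libraries) were kept on mitomycin C-treated mouse embryonic fibroblasts with 15% KSR, Activin A, bFGF2 and the Wnt inhibitor XAV939, so that feeder RNA could enter these libraries. Formative pluripotent stem cells (fPSCs) were grown in Matrigel in N2B27 with Activin A, bFgf2 and XAV939. There was 1 library of fPSCs at passage 1 (P1) and 7 libraries of long-term fPSCs, namely P10, P20 and P30 of the CMT line, and, from a later deposit with another library kit, 46C P24, BVSC P14, ROSAmTmG P12 and CMT P11, the last from a cryopreserved culture. The study describes 46C as a Sox1-GFP reporter line, BVSC as a Blimp1-Stella reporter line and ROSAmTmG as derived from ROSAmT/mG mice. The label of wild type does not show this. A further 2 libraries came from fPSCs derived from E5.5 and E6.5 epiblasts. By the study's account P1, P10, P20, P30 and CMT P11 come from the same line, so 4 of the 7 libraries share an origin, and p-values measure only the spread between these libraries.

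Glycolysis splits glucose into pyruvate in the cytosol. Glucose enters through transporters of the Slc2a family, hexokinase traps it as a phosphate, phosphofructokinase commits it to the pathway, and pyruvate kinase closes it. Lactate dehydrogenase converts pyruvate to lactate, which leaves through the monocarboxylate transporters Slc16a1 and Slc16a3, while the pyruvate dehydrogenase kinases (Pdk1 to Pdk4) restrain the entry of pyruvate into mitochondria. Several steps have isozymes encoded by separate genes with different tissue patterns. Hif1a encodes the oxygen-regulated subunit of a transcription factor that acts on many of these genes. Embryonic stem cells and epiblast cells are known for active glycolysis.

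Values were given by the authors as FPKM (fragments per kilobase, corrected for the number mapped), a level comparable between genes, and the number of reads behind them is unknown. Between 10034 and 10933 genes reached 1 FPKM per library. The summed level of 8 naive markers was 2752 and 3431 FPKM in mESCs and 1.15 to 3.49 FPKM in fPSCs, and all 6 formative markers found reached 1 FPKM in every EpiLC, EpiSC and fPSC library. The 22 fibroblast markers summed to 805 and 980 FPKM in EpiSCs, where 18 of the 22 reached 1 FPKM, against 3.31 and 9.41 in mESCs, 31.7 and 32.4 in EpiLCs and 11.3 to 17.8 in fPSCs. In the EpiSCs, the fibroblast markers Fap, Postn, Lum and Pdgfra were below 1 FPKM. RNAs without a poly(A) tail, a list of 9, summed to 1600 and 4266 FPKM in mESCs, 237 to 319 in the fPSCs of the first deposit and 8.49 to 31.5 in EpiLCs, EpiSCs and the fPSCs of the second deposit. The part of feeder RNA and of these RNAs in the comparisons that follow was not tested.

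Most steps of the pathway had a highly expressed gene in every state. Gpi1, Aldoa, Tpi1, Gapdh, Pgk1, Pgam1, Eno1, Pkm and Ldha, 9 genes in all, were at or above 100 FPKM in all 19 libraries. Gapdh, the dehydrogenase of the lower pathway, had a mean of 1453 ± 180 FPKM (SD, n = 2) in mESCs, 1806 ± 297 (n = 2) in EpiLCs, 1547 ± 123 (n = 2) in EpiSCs and 1785 ± 305 (n = 7) in fPSCs. Pklr, the liver and erythrocyte pyruvate kinase, was the 1 member below 1 FPKM in every library, with a highest value of 0.124 FPKM. Several of the abundant members, among them Gapdh and Pgk1, have near-identical processed copies elsewhere in the mouse genome, so reads could be split between copies and these levels carry that uncertainty.

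Summed over the 33 members, glycolysis and lactate genes made up 1.32% to 3.14% of all FPKM in a library. Their share was 2.2 ± 0.25% (SD, n = 2) in mESCs, 2.26 ± 0.19% (n = 2) in EpiLCs, 1.69 ± 0.05% (n = 2) in EpiSCs and 2.14 ± 0.40% (n = 7) in fPSCs. The 2 EpiSC libraries, at 1.66% and 1.73%, lay below each of the 7 fPSC libraries, which ran from 1.77% to 2.77%, whereas the mESC and EpiLC libraries lay within the fPSC range. The highest share of all, 3.14%, was found in Epiblastoids on day 4 and the lowest, 1.32%, in the fPSCs from E6.5 epiblasts.

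**Figure D1:**
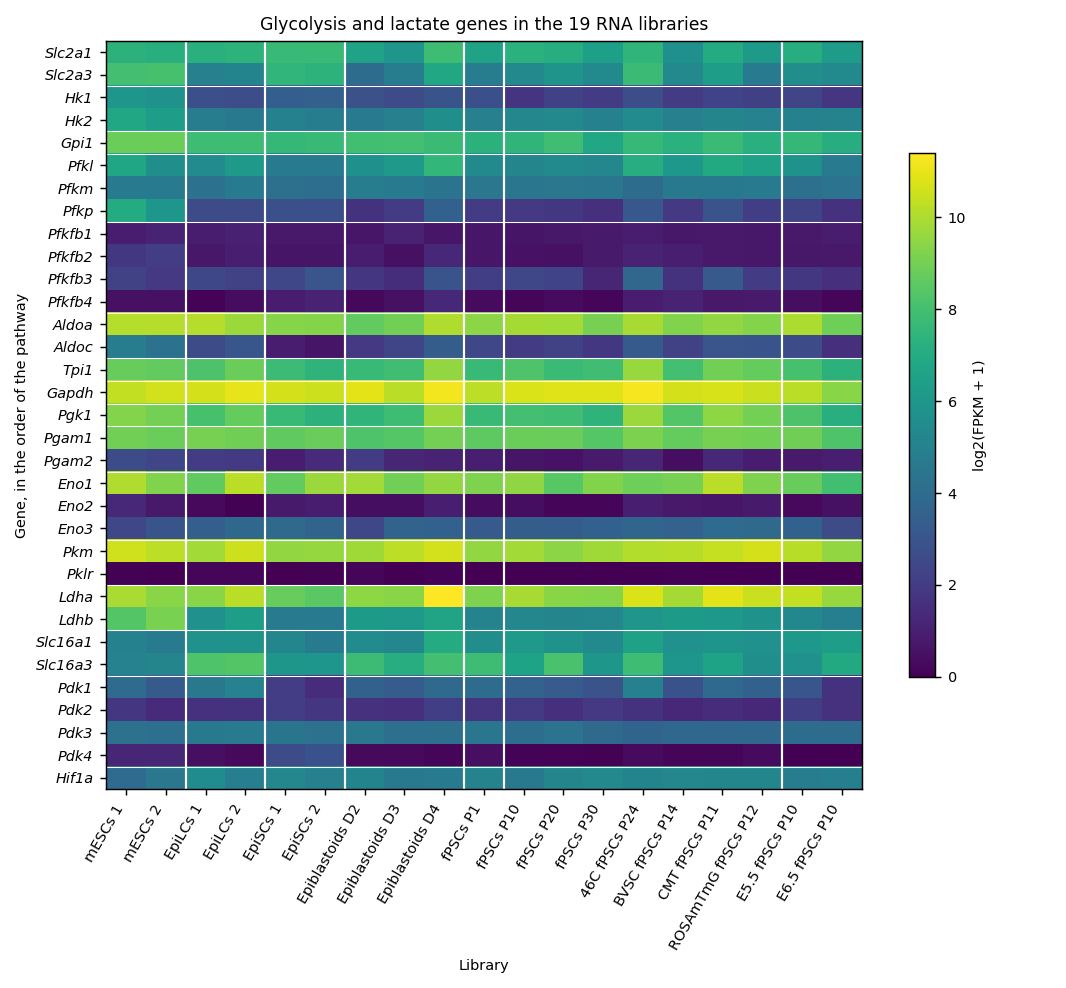
Heat map of log2(FPKM + 1) of each of the 33 genes (rows, in the order of the pathway) in each of the 19 libraries (columns, white lines between groups), from dark blue at 0 to yellow at the highest values. Gapdh, Pkm and Ldha are green to yellow in all libraries, Slc2a3, Hk1, Pfkp and Ldhb are brighter in the mESC libraries than in EpiLCs, and Pklr is dark throughout.

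Of the 33 members, 31 reached 1 FPKM in at least 2 of the 13 replicated libraries and were tested with limma on log2(FPKM + 1), in 1 fit with all 12513 genes that passed this filter. A gene was called at an adjusted p below 0.05 and a fold change of at least 1.5. Fold changes are on the log2(FPKM + 1) scale, where the pseudocount of 1 FPKM shrinks the folds of genes near or below that level, so folds of Pdk4, Pfkfb2, Pfkfb4, Pgam2 and Aldoc are not to be ranked against those of abundant genes. Against mESCs, 13 of the 31 members (41.9%) changed in EpiLCs, 4 higher and 9 lower, where 29.6% of all genes tested were called, 12.2% higher and 17.4% lower. In EpiSCs 14 members (45.2%) changed, 3 higher and 11 lower, against 47.8% of all genes, 23.1% higher and 24.7% lower. In fPSCs 14 members (45.2%) changed, 4 higher and 10 lower, against 40.3% of all genes, 17.3% higher and 23.0% lower. The members' count was above the background in EpiLCs and close to it in EpiSCs and fPSCs. Lower members outnumbered higher ones in each state, and the median log2 fold change over the members was -0.23, -0.62 and -0.29, beside -0.06, -0.09 and -0.04 over all genes tested. These comparisons share the 2 mESC libraries. Leaving out mESCs replicate 1 leaves 1 mESC library, and both the members called and all genes called then fell in each comparison. Of all genes called, the share that was higher was 41.1%, 48.3% and 42.9% in the 3 comparisons, and 55.0%, 59.9% and 54.4% after rescaling to TPM, which moved the median of all genes to 0.11, 0.16 and 0.12 on the log2 scale, while the members were then 4 higher and 8 lower, 3 higher and 9 lower, and 4 higher and 10 lower.

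Of the 2 glucose transporter genes, Slc2a3, which encodes the high-affinity transporter GLUT3, differed between states in its RNA level. Slc2a3 was at 257 and 272 FPKM in mESCs, 30.5 and 33.9 in EpiLCs, 182 and 163 in EpiSCs, and 24.7, 42.1 and 215 (lowest, median and highest) in the 7 fPSC libraries. The mESC libraries were the highest and overlapped no other group, and the fPSC libraries ran from below the EpiLCs to above the EpiSCs. Slc2a3 fell from mESCs by 3.00 ± 0.70 on the log2 scale (SE) in EpiLCs (limma adjusted p = 0.00572) and by 2.21 ± 0.56 in fPSCs (adjusted p = 0.00624). Slc2a1, the widely expressed transporter GLUT1, was not called in any comparison and ran from 143 to 212 FPKM in mESCs, EpiLCs and EpiSCs and from 51.7 to 177 FPKM in fPSCs.

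Both hexokinases fell on leaving the naive state, Hk1 further than Hk2. Hk1, the constitutive mitochondria-bound form, was at 62.9 and 55.4 FPKM in mESCs, 5.84 and 5.54 in EpiLCs, 9.67 and 10.4 in EpiSCs, and 2.35, 3.48 and 5.56 in fPSCs. The mESC libraries were highest, the EpiSC libraries came next without overlap, and the highest fPSC library overlapped the EpiLCs. Hk1 was 13.4-fold lower in fPSCs than in mESCs (log2 fold change -3.75 ± 0.21, adjusted p = 1.59e-08), 8.97-fold lower in EpiLCs (adjusted p = 1.72e-06) and 5.43-fold lower in EpiSCs (adjusted p = 9.00e-06). Hk2, the inducible form, was at 114 and 81.3 FPKM in mESCs, 26.6 and 23.3 in EpiLCs, 31.3 and 27.3 in EpiSCs, and 29.9, 35.2 and 43.7 in fPSCs. It was lower than in mESCs by 1.91 ± 0.22 in EpiLCs, 1.69 ± 0.22 in EpiSCs and 1.42 ± 0.17 in fPSCs on the log2 scale, each past the threshold (adjusted p = 2.53e-05, 3.81e-05 and 2.53e-05). Hk1 made up 38.0 ± 3.6% of the summed Hk1 and Hk2 level in mESCs and 9.01 ± 1.66% in fPSCs.

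The phosphofructokinases changed in composition. Pfkp, the platelet-type subunit, was at 128 and 61.8 FPKM in mESCs, 5.02 and 5.09 in EpiLCs, 5.84 and 5.91 in EpiSCs, and 1.86, 2.76 and 7.55 in fPSCs. The mESC libraries stood apart from all others. Pfkp gave the largest difference of all members between fPSCs and mESCs, 19.7-fold lower (log2 fold change -4.30 ± 0.39, adjusted p = 1.46e-06), and was 14.8-fold lower in EpiLCs (adjusted p = 5.30e-05) and 13.1-fold lower in EpiSCs (adjusted p = 4.27e-05). Neither Pfkl, the liver type, nor Pfkm, the muscle type, was called between states. Pfkp made up 47.2 ± 3.4% of the summed level of the 3 subunits in mESCs, 6.22 ± 1.58% in EpiLCs, 12.1 ± 0.3% in EpiSCs and 3.78 ± 0.83% in fPSCs, where Pfkl made up 71.4 ± 9.9%. Of the Pfkfb genes, whose enzymes set the level of the phosphofructokinase activator fructose 2,6-bisphosphate, Pfkfb2 fell by 1.113 ± 0.20, 1.32 ± 0.20 and 1.19 ± 0.16 on the log2 scale in EpiLCs, EpiSCs and fPSCs (adjusted p = 0.000928, 0.000137 and 5.26e-05). It was low throughout, at 2.63 and 3.20 FPKM in mESCs, 0.658 and 0.965 in EpiLCs, 0.576 and 0.550 in EpiSCs, and 0.407, 0.698 and 1.19 in fPSCs.

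Further down the pathway, Gpi1, phosphoglucose isomerase, and the minor isozymes Aldoc and Pgam2 were lower than in mESCs. Gpi1 was at 455 and 459 FPKM in mESCs, 233 and 234 in EpiLCs, 193 and 206 in EpiSCs, and 112, 174 and 235 in fPSCs, with mESCs above all the others. It fell by 0.97 ± 0.29 in EpiLCs (adjusted p = 0.024), 1.19 ± 0.29 in EpiSCs (adjusted p = 0.00481) and 1.40 ± 0.23 in fPSCs (adjusted p = 0.000331) on the log2 scale. The call of Gpi1 in EpiLCs was kept under 5 of 10 alternatives. Aldoc, the brain-type aldolase, was at 27.2 and 18.1 FPKM in mESCs, 5.15 and 7.33 in EpiLCs, 0.902 and 0.586 in EpiSCs, and 2.61, 3.78 and 8.29 in fPSCs, so that EpiSCs were below every fPSC library. Its log2 fold change from mESCs was -1.70 ± 0.43 in EpiLCs (adjusted p = 0.00957), -3.74 ± 0.43 in EpiSCs (adjusted p = 1.45e-05) and -2.03 ± 0.35 in fPSCs (adjusted p = 0.000385). Aldoa, the main aldolase, was called in EpiSCs only (1.76-fold lower than in mESCs, adjusted p = 0.0456), a call kept under 2 of 11 alternatives with an adjusted p of up to 0.196. It held between 98.0% and 99.9% of the summed Aldoa and Aldoc level in the group means. Pgam2, the muscle-type mutase, was at 5.28 and 4.22 FPKM in mESCs, 3.07 and 2.81 in EpiLCs, 0.818 and 1.66 in EpiSCs, and 0.344, 0.783 and 1.502 in fPSCs. Pgam2 fell by 1.68 ± 0.23 in fPSCs (adjusted p = 7.26e-05) and by 1.38 ± 0.29 in EpiSCs (adjusted p = 0.00184) relative to mESCs. Pgk1, phosphoglycerate kinase, was 3.09-fold lower in EpiSCs than in mESCs (adjusted p = 0.0498, kept under 5 of 11 alternatives, with an adjusted p of up to 0.199), at 626 and 513 FPKM in mESCs, 270.0 and 417 in EpiLCs, 211 and 158 in EpiSCs, and 171, 320.2 and 819 in fPSCs. Eno3, the muscle-type enolase, rose, at 4.44 and 6.86 FPKM in mESCs, 10.03 and 12.8 in EpiLCs, 14.2 and 11.3 in EpiSCs, and 9.15, 10.8 and 15.0 in fPSCs. It was 1.89-fold higher in EpiLCs (adjusted p = 0.0224), 2.09-fold in EpiSCs (adjusted p = 0.00643) and 1.90-fold in fPSCs (adjusted p = 0.00407).

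At the lactate step, Ldhb fell while Ldha did not differ past the threshold from mESCs. Ldhb, the heart-type subunit of lactate dehydrogenase, was at 328 and 546 FPKM in mESCs, 54.2 and 81.6 in EpiLCs, 25.4 and 24.7 in EpiSCs, and 35.6, 57.7 and 73.5 in fPSCs. The EpiSC libraries lay below every fPSC library, and both mESC libraries lay far above the rest. Ldhb was 16.3-fold lower in EpiSCs than in mESCs (log2 fold change -4.03 ± 0.38, adjusted p = 2.28e-06), 8.17-fold lower in fPSCs (-3.03 ± 0.30, adjusted p = 3.95e-06) and 6.28-fold lower in EpiLCs (-2.65 ± 0.38, adjusted p = 0.00017). Ldha, the muscle-type subunit, was at 976 and 670 FPKM in mESCs, 670 and 1171 in EpiLCs, 432 and 357 in EpiSCs, and 643, 948 and 1960 in fPSCs. Ldhb made up 35.0 ± 14% of the 2 subunits in mESCs and 4.62 ± 1.47% in fPSCs.

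The lactate transporters went the other way. Slc16a3 (MCT4), which exports lactate, was at 31.8 and 35.0 FPKM in mESCs, 305 and 328 in EpiLCs, 64.3 and 62.9 in EpiSCs, and 50.2, 95.8 and 279 in fPSCs. The EpiLC libraries were above all others, and no fPSC library came down to the mESC level. Slc16a3 was 9.23-fold higher in EpiLCs than in mESCs (log2 fold change 3.21 ± 0.67, adjusted p = 0.00297) and 3.02-fold higher in fPSCs (1.59 ± 0.54, adjusted p = 0.0296). Slc16a1 (MCT1), a two-way carrier of lactate and pyruvate, was at 30.8 and 26.0 FPKM in mESCs, 52.8 and 56.3 in EpiLCs, 36.6 and 25.7 in EpiSCs, and 41.8, 54.6 and 92.1 in fPSCs. It was 1.90-fold higher in EpiLCs (adjusted p = 0.0331, kept under 5 of 10 alternatives) and 2.04-fold higher in fPSCs (adjusted p = 0.00375, kept under 15 of 16). Hif1a was higher than in mESCs by 0.97 ± 0.29, 0.86 ± 0.29 and 0.90 ± 0.23 on the log2 scale in EpiLCs, EpiSCs and fPSCs (adjusted p = 0.0212, 0.0246 and 0.00635).

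**Figure D2:**
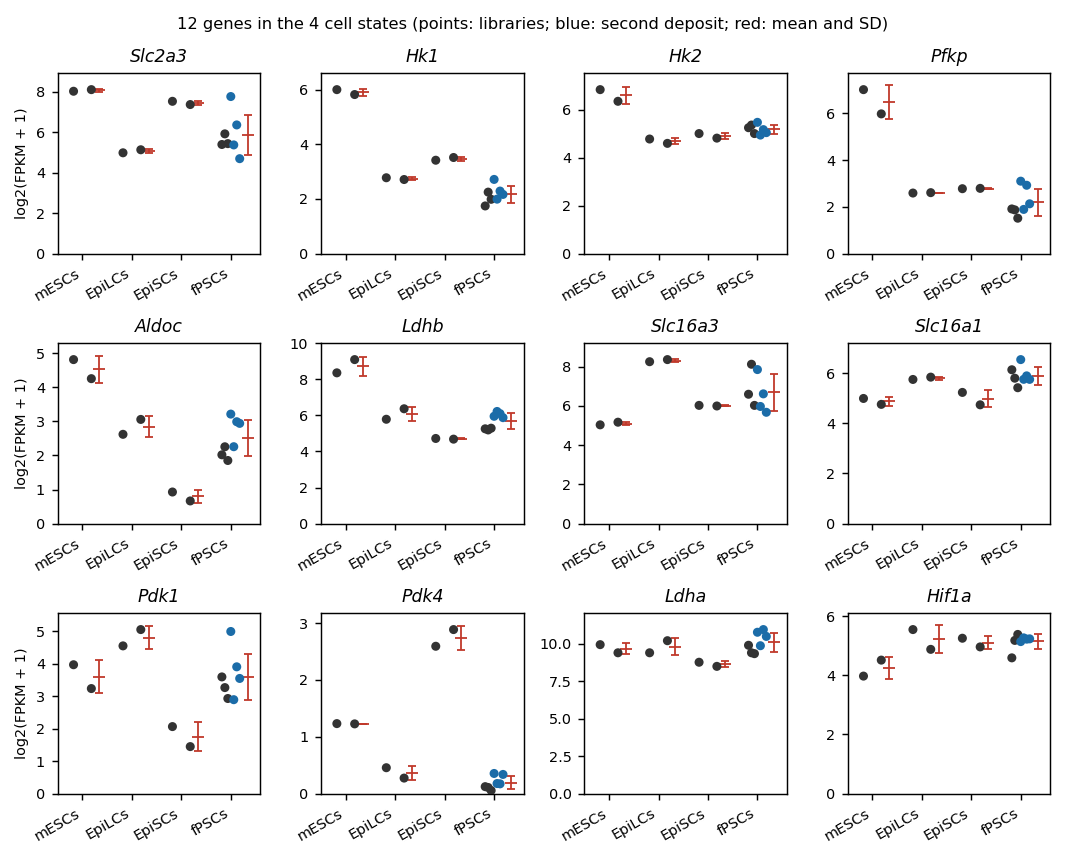
Log2(FPKM + 1) of 12 genes in mESCs, EpiLCs, EpiSCs and fPSCs, with 1 point per library (blue for fPSCs of the second deposit, dark for the first) and the mean and SD of each group in red. Hk1, Pfkp and Ldhb are highest in the 2 mESC libraries, Slc16a3 is highest in EpiLCs, Pdk4 is highest in EpiSCs, and the 7 fPSC points of Slc2a3 spread from 24.7 to 215 FPKM.

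Among the pyruvate dehydrogenase kinases, Pdk1 and Pdk4 set EpiSCs apart within the 4 groups tested. Pdk1 was at 14.6 and 8.39 FPKM in mESCs, 22.3 and 32.1 in EpiLCs, 3.17 and 1.72 in EpiSCs, and 6.41, 10.7 and 30.7 in fPSCs. Pdk4 was at 1.35 and 1.34 FPKM in mESCs, 0.371 and 0.208 in EpiLCs, 5.04 and 6.40 in EpiSCs, and 0.038, 0.126 and 0.278 in fPSCs. Of the 4 groups, EpiSCs were the lowest for Pdk1 and the highest for Pdk4, with no overlap in either case. Outside these groups, the fPSCs from E6.5 epiblast had Pdk1 at 2.16 FPKM, between the 2 EpiSC libraries. Against mESCs, Pdk4 rose in EpiSCs by 1.51 ± 0.15 (adjusted p = 2.75e-06) and fell in EpiLCs by 0.87 ± 0.15 (adjusted p = 0.000598) and in fPSCs by 1.04 ± 0.12 (adjusted p = 1.09e-05) on the log2 scale, and Pdk1 fell in EpiSCs by 1.84 ± 0.56 (adjusted p = 0.0166). Pdk2 was not called in any comparison, and Pdk3 was not called in any that involved EpiSCs.

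Between EpiSCs and EpiLCs, 9 of 31 members (29.0%) were called, 3 higher and 6 lower in EpiSCs, against 35.9% of all genes, 20.4% higher and 15.5% lower. Higher in EpiSCs were Pdk4 (5.19-fold, adjusted p = 7.67e-08), Slc2a3 (5.23-fold, adjusted p = 0.0182) and Pfkfb4 (1.71-fold, adjusted p = 0.0427). The mean FPKM without a pseudocount differed 19.7-fold for Pdk4 and 5.54-fold for Pfkfb4. The largest decreases were those of Pdk1 (8.24-fold, adjusted p = 0.00115), Slc16a3 (4.91-fold, adjusted p = 0.0182), Aldoc (4.12-fold, adjusted p = 0.00285) and Ldhb (2.59-fold, adjusted p = 0.0134), followed by Pgam2 (1.79-fold, adjusted p = 0.0391) and Slc16a1 (1.75-fold, adjusted p = 0.0497). Leaving out any 1 of the 4 libraries leaves 1 in a group, and fewer members and fewer of all genes were then called. Without the filter on low values 4 members were called, beside 4114 of all genes (4488 with it). The calls of Aldoc, Pdk1 and Pdk4 held under every alternative setting tried.

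fPSCs and EpiSCs differed in 8 of the 31 members (25.8%), 5 higher and 3 lower in fPSCs, against 32.3% of all genes, 13.3% higher and 19% lower. Pdk4 was 5.87-fold lower on this scale (log2 fold change -2.55 ± 0.12, adjusted p = 3.61e-09, and -4.66 with a pseudocount of 0.1 FPKM) and Hk1 2.47-fold lower (-1.30 ± 0.21, adjusted p = 0.000503) in fPSCs. Pdk1 was 3.56-fold higher (1.83 ± 0.45, adjusted p = 0.00768), Aldoc 3.27-fold higher (1.71 ± 0.35, adjusted p = 0.00226) and Ldha 2.77-fold higher (1.47 ± 0.42, adjusted p = 0.017). For Ldha all 7 fPSC libraries, from 643 FPKM upwards, were above both EpiSC libraries. Ldhb (1.99-fold, adjusted p = 0.023) and Slc16a1 (1.89-fold, adjusted p = 0.0107) were also higher. The call of Ldhb was kept under 12 of 16 alternatives, that of Ldha under 13 and that of Slc16a1 under 15. Both EpiSC libraries were of the first deposit, where the fPSC means were 754 FPKM for Ldha and 37.0 for Ldhb. In the second deposit these means were 1512 and 64.9 FPKM. Slc2a3 was 3.03-fold lower (adjusted p = 0.042, kept under 6 of 16 alternatives), but 1 fPSC library, 46C P24, was above both EpiSC libraries. Leaving out either EpiSC library leaves 1 in that group, and both the members called and all genes called then fell. Hk1 and Pdk4 were called under every alternative setting tried. The fibroblast markers, 17 of 18 tested lower in fPSCs, moved with this comparison, and their part in it was not tested.

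fPSCs and EpiLCs had the fewest calls of the 6 comparisons, with 2 of 31 members called (6.45%), both lower in fPSCs, against 13.8% of all genes, 5.66% higher and 8.15% lower. Pgam2 was 2.203-fold lower (adjusted p = 0.0051) and Pdk3, another pyruvate dehydrogenase kinase, was 1.66-fold lower (adjusted p = 0.00964), at 23.5 and 25.5 FPKM in EpiLCs and 11.8, 13.6 and 19.01 in fPSCs. Slc16a3 had the largest fold change, 3.06-fold lower in fPSCs without overlap of the libraries, but its adjusted p was 0.0638. No member was called once either EpiLC library was left out, and 5 were called without 46C P24.

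Across the 6 comparisons 60 calls were made, on 20 members, and 11 members were called in none. For 1 of the 60 calls, that of Slc2a3 between fPSCs and EpiSCs, the libraries of the groups overlapped. The members called in none included the abundant enzymes Tpi1, Gapdh, Pgam1, Eno1 and Pkm. The calls that held under every alternative numbered 8 of 13 in EpiLCs against mESCs, 9 of 14 in EpiSCs against mESCs and 9 of 14 in fPSCs against mESCs, and Hk1, Hk2, Pfkp, Pfkfb2, Pdk4 and Ldhb were among them in all 3.

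**Figure D3:**
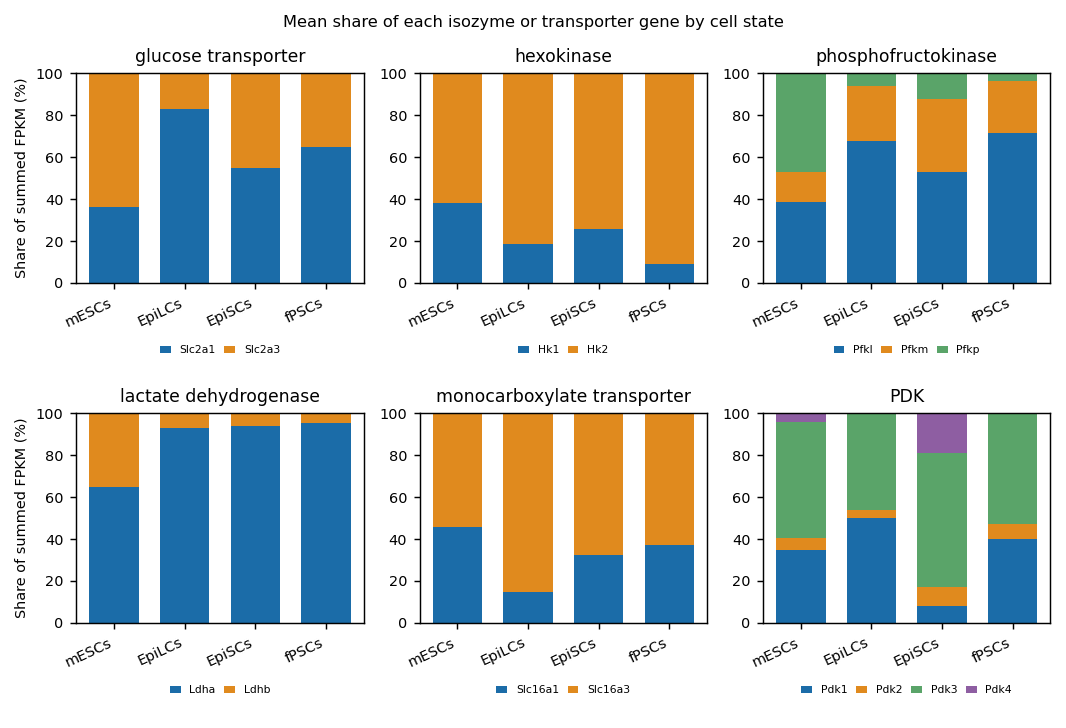
Stacked bars of the mean share (percent) of each gene in the summed FPKM of its family in the 4 states, for the glucose transporters, hexokinases, phosphofructokinases, lactate dehydrogenases, monocarboxylate transporters and pyruvate dehydrogenase kinases (PDK). Hk1, Pfkp and Ldhb take their largest share in mESCs, at 38.0%, 47.2% and 35.0%, and their smallest in fPSCs, at 9.01%, 3.78% and 4.62%.

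The 7 long-term fPSC libraries varied among themselves. Hk2 was among the steadiest, from 29.9 to 43.7 FPKM with a coefficient of variation of 14.2%, and Gapdh ran from 1451 to 2409 FPKM (17.1%). Of the 22 members that reached 10 FPKM, Slc2a3 had the highest coefficient, from 24.7 to 215 FPKM (91.2%), followed by Pfkfb3 from 1.37 to 12.4 FPKM (77.1%), Slc16a3 from 50.2 to 279 FPKM (72.5%), Pdk1 from 6.41 to 30.7 FPKM (67.2%) and Pgk1 from 171 to 819 FPKM (58.4%). Among these members, 12 had their highest value in 46C P24 and 7 had their lowest in P30. The same count was not made over all genes, so it is a description only. Of the 7 libraries, 46C P24 had the most genes at 1 FPKM (10875) and P30 the fewest (10034). Pfkfb3 reached 10 FPKM in 46C P24 alone. In 46C P24 the HIF list outside glycolysis summed to 610 FPKM, against 194 to 417 in the other 6 fPSC libraries, and 6 primed markers summed to 470 FPKM, against 38.5 to 149.

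Part of this variation followed the deposit. Between the 4 fPSC libraries of the second deposit and the 3 of the first, 6 of 27 members tested (22.2%) were called, all higher in the second, against 29.7% of all genes, of which 20.8% were higher and 8.93% lower. These were Pfkl (2.57-fold, adjusted p = 0.00219), Pgk1 (2.56-fold, adjusted p = 0.00792), Ldha (1.96-fold, adjusted p = 0.0161), Aldoc (1.75-fold, adjusted p = 0.019), Ldhb (1.73-fold, adjusted p = 0.000738) and Pkm (1.58-fold, adjusted p = 0.0118). The libraries of the 2 deposits did not overlap except for Ldha. The second deposit differed in library kit and held other lines and passages beside CMT P11. Within the CMT line, CMT P11 of the second deposit was above P10, P20 and P30 of the first for all 6 genes, for example at 122 FPKM for Pfkl against 35.3 to 43.2, at 711 FPKM for Pgk1 against 171 to 251 and at 1960 FPKM for Ldha against 643 to 948. CMT P11 is 1 library of a cryopreserved culture, so the kit and cryopreservation cannot be told apart within this line. Of all genes called, 69.9% were higher in the second deposit, and 56.1% after rescaling to TPM. With the fPSCs of the first deposit alone, 18 of 30 members were called against mESCs, 4 higher and 14 lower, where 51.8% of all genes were called. With those of the second, 15 of 31 were called, 4 higher and 11 lower, where 43.8% of all genes were. Against EpiSCs the counts were 9 (31.5% of all genes called) with the first and 12 (46.5%) with the second, and against EpiLCs 6 (25.8%) and 4 (21.2%).

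The remaining fPSC libraries were set beside the range of these 7. At P1, 23 of the 31 members were inside the range, Tpi1, Gapdh, Eno3, Ldha and Ldhb were below it and Hk1, Pdk3 and Pdk4 above it. In the fPSCs from E5.5 epiblast 27 members were inside. In those from E6.5 epiblast 19 were inside and 12 below, among them Gapdh at 669 FPKM and Pgk1 at 146 FPKM. No member was above the range in that library. Each of these is a single library, so the differences have no replicate check. The same counts were not made over all genes.

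In Epiblastoids, many of these genes were higher on day 4 than on day 3. Ldha went from 671 to 2696 FPKM, Slc2a3 from 26.3 to 115, Slc2a1 from 63.0 to 234, Pgk1 from 228 to 817 and Slc16a1 from 37.3 to 130. Glucose transporters, enzymes of the upper and lower pathway and the carrier Slc16a1 were among the members higher by 2-fold or more, 12 of 30 compared, where 16.1% of all 11357 genes differed by that much, 7.85% higher and 8.22% lower. The other 7 were Tpi1, Pfkp, Pfkfb3, Pfkl, Aldoa, Aldoc and Gapdh, at log2 ratios of 1.00 to 1.62. No member was lower by 2-fold, 25 of 30 had a log2 ratio above 0, and the median log2 ratio of the members was 0.74, beside -0.14 over all genes. On days 3 and 4, Slc16a3 was at 135 and 254 FPKM (1.87-fold) and Hif1a at 23.0 and 24.1 FPKM. Between days 2 and 3, 1 of 28 members was higher by 2-fold (Eno3, 4.61 to 11.3 FPKM) and none was lower, against 5.58% of all genes in either direction, 3.11% higher and 2.47% lower, and the members' median was -0.06 beside 0.12. With 1 library per day there was no test and no replicate check.

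Other lists moved with the members on day 4. Of 23 HIF pathway genes and targets outside glycolysis compared, 15 were higher by 2-fold or more and none lower, with a median log2 ratio of 1.24. The largest were Ndrg1 at 3.40, P4ha1, a collagen prolyl hydroxylase, at 2.95, Egln3, an oxygen-sensing prolyl hydroxylase, at 2.26 and Ddit4, an inhibitor of mTOR signalling, at 2.25. Genes of pyruvate entry into mitochondria (1 higher and 1 lower of 10) and of the pentose phosphate pathway (0 higher and 1 lower of 8) had medians of -0.04 and 0.05. All 6 primed markers were higher, their sum going from 50.9 to 696 FPKM, and RNAs without a poly(A) tail summed to 19.6, 1449 and 768 FPKM on days 2, 3 and 4. The part of these differences in the members' values was not tested.

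**Figure D4:**
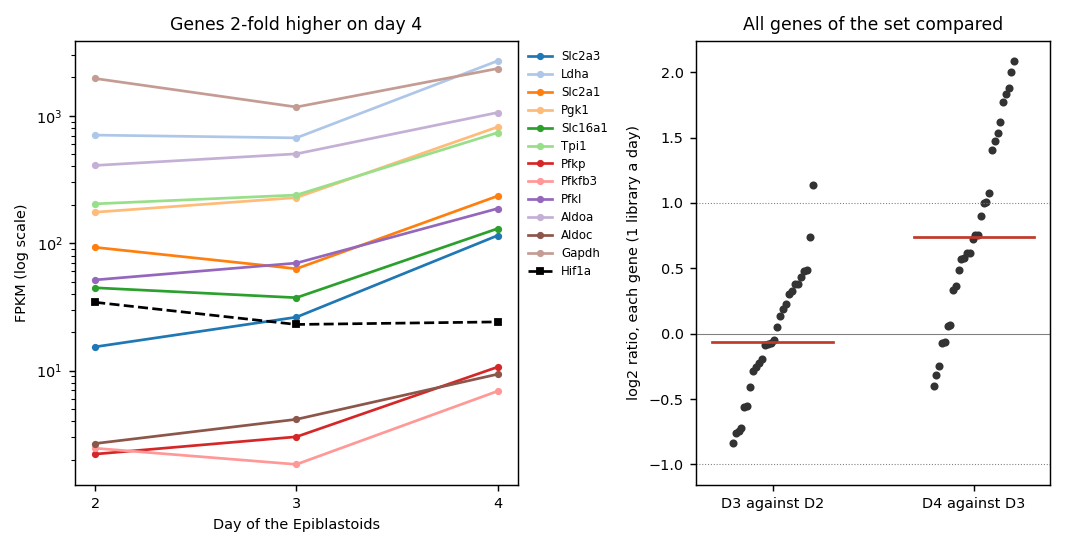
Left, FPKM on a log axis of the 12 genes higher by 2-fold or more on day 4 and of Hif1a (dashed, squares) on days 2, 3 and 4 of Epiblastoids, 1 library per day. Right, the log2 ratio of every member compared (points) with the median in red, -0.06 for day 3 against day 2 and 0.74 for day 4 against day 3, and dotted lines at a 2-fold difference.

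Genes of neighbouring pathways were called in both directions in fPSCs. The share of all genes called against mESCs was 40.3%, with 17.3% higher and 23.0% lower, and the counts of the small lists that follow are descriptions beside it. Of 10 genes of pyruvate entry tested, 2 were higher and 3 lower than in mESCs. Pdp2 (log2 fold change -1.32) and Mpc2, a subunit of the mitochondrial pyruvate carrier (-1.06), were among the lower ones, and Pdp1 (0.74), which like Pdp2 encodes a pyruvate dehydrogenase phosphatase, was higher. Against EpiSCs, 3 of the 10 were higher in fPSCs, including Pdhb (1.17), and none lower, where 32.3% of all genes were called. Of 9 pentose phosphate genes, 2 were lower than in mESCs, H6pd (-1.30) and Taldo1 (-1.01). Of 24 genes of the HIF list, 2 were higher, led by Hif3a (2.61), and 6 lower, led by Kdm3a (-2.47), Ak4 (-2.25) and P4ha1 (-2.003). Among 15 related glucose genes, 3 were higher and 6 lower, and the largest change was that of Emb (4.24), which encodes a membrane chaperone of monocarboxylate transporters. Among 10 regulators of glycolytic genes, 4 were higher, including Myc (4.68) and Lin28a (3.57), and 4 lower, led by the naive factor Esrrb (-7.46). Limma adjusted p-values for the genes named here were at most 0.0271.

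Chromatin marks at the promoters of the members were read from ChIP-seq of H3K4me3, a mark of active promoters, and H3K27me3, a Polycomb mark, and from bisulfite sequencing (MethylC-seq), all of fPSCs at P10. All 33 members were placed on NCBIM37 (mm9), and for the 24 with more than 1 annotated start the start with the most H3K4me3 was used. These files hold 1 value per bin, without separate replicates or coverage, so the values carry no error. Within 1000 bp of the start the median H3K4me3 level was 6.63 RPKM over the members and 2.96 RPKM over all 22066 promoters. The highest levels belonged to Eno1 at 15.3, Gapdh at 12.4 and Hk2 at 12.3 RPKM, and the lowest to Pgam2 at 1.12 and Pklr at 1.54 RPKM. The choice of start raises these levels for genes with several starts.

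A mean methylation level above 0.5 was found at 3 of 33 member promoters, against 39.8% of all promoters. These were Pklr at 0.946, Pgam2 at 0.905 and Aldoc at 0.524. Within 500 bp of the start, 2 of 32 members were above 0.5, against 33.4% of all promoters. Pklr was at 1 and Pgam2 at 0.868 there, while Aldoc was at 0.015. Pklr and Pgam2 were also among the members with the lowest RNA levels, at most 0.040 and 1.502 FPKM in the fPSC libraries. Within 1000 bp, Slc16a3 (0.415), Tpi1 (0.408), Pdk4 (0.347) and Pfkfb4 (0.333) followed, and Hk2 and Aldoa were at 0 and 0.00235. With the start farthest upstream in place of the one with most H3K4me3, 8 of 33 member promoters were above 0.5, against 41.9% of all promoters. H3K27me3 above the 90th percentile of all promoters, which 9.98% of them passed, was found at 1 member, Pgk1, at 3.28 RPKM (98.0th percentile). Its H3K4me3 was 6.52 RPKM and its methylation 0.132, and it is X-linked like Pfkfb1 and Pdk3, whose H3K27me3 levels were 0.122 and 0.152 RPKM. The member called changed with the window. Within 5000 bp of the start, Pgk1 was at 0.746 RPKM, below the 90th percentile there (1.51 RPKM). The 1 member above that percentile was Eno2, at 1.64 RPKM.

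**Figure D5:**
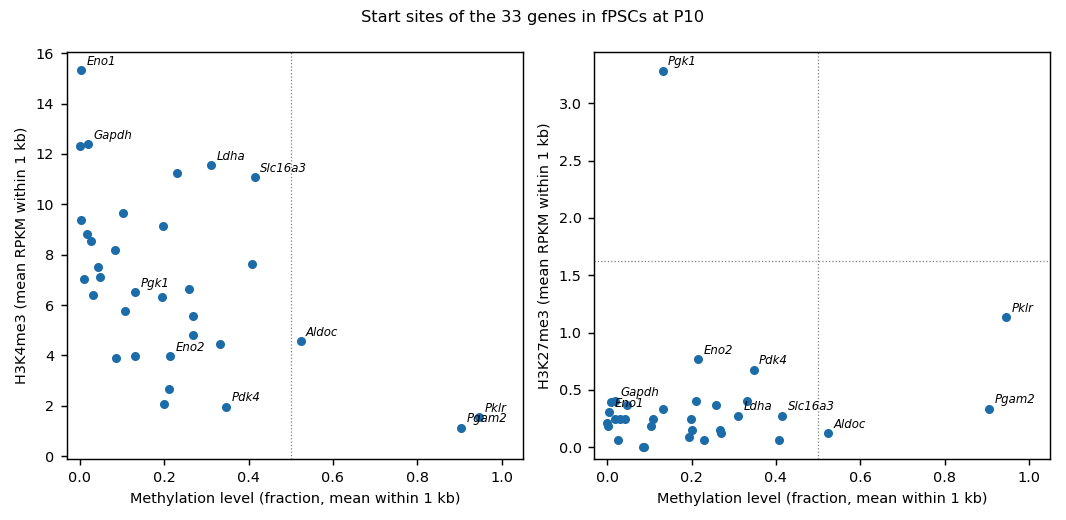
H3K4me3 (left) and H3K27me3 (right), each as mean RPKM within 1 kb of the start site, against the mean methylation level (fraction) there, for the 33 genes in fPSCs at P10, with dotted lines at a methylation of 0.5 and at the 90th percentile of H3K27me3 over all promoters. Pgam2 and Pklr sit at methylation of 0.905 and 0.946 with H3K4me3 of 1.12 and 1.54 RPKM, and Pgk1 is the 1 point above the H3K27me3 line, at 3.28 RPKM.

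The 250 bases upstream of the start are shown for 5 members that span these extremes. Pgk1 was taken for its H3K27me3, and Ldha and Slc16a1 because they were higher on day 4 in Epiblastoids. Aldoc and Pgam2 were taken for a mean methylation above 0.5 within 1000 bp, though Aldoc was at 0.015 within 500 bp. The bases were read 5′ to 3′ on the strand of the gene from NCBIM37 (mm9), and capitals mark CG dinucleotides, the sites of methylation. The windows are chrX:103382189-103382438 (+) for Pgk1, chr7:54102251-54102500 (+) for Ldha, chr3:104442341-104442590 (+) for Slc16a1, chr11:78136220-78136469 (+) for Aldoc and chr11:5703737-5703986 (-) for Pgam2, and none overlaps an annotated exon of its gene.
Pgk1: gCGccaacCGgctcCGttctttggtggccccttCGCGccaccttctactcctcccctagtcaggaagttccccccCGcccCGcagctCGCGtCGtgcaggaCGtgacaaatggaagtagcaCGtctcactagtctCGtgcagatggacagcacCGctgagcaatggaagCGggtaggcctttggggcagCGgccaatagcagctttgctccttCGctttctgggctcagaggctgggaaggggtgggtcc
Ldha: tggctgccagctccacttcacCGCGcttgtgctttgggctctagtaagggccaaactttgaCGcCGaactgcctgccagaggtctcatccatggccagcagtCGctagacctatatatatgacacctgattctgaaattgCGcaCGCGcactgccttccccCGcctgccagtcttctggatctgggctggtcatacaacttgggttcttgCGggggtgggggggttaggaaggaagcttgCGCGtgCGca
Slc16a1: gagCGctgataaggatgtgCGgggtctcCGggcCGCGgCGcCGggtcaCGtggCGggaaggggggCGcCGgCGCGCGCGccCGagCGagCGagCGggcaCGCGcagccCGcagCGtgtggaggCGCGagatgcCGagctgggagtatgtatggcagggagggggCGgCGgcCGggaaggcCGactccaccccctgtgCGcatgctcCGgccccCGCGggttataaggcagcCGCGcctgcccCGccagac
Aldoc: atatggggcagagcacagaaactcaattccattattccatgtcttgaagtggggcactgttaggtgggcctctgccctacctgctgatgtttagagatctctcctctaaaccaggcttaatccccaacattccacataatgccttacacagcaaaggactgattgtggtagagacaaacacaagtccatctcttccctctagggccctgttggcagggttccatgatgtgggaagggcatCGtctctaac
Pgam2: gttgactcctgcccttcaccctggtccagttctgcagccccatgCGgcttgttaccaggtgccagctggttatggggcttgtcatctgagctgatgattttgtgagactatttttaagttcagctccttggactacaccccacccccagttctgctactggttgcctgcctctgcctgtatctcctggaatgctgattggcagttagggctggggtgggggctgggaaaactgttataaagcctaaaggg

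The window held 17 CG dinucleotides in Pgk1, 13 in Ldha and 37 in Slc16a1, but 1 each in Aldoc and Pgam2, where the median was 14 over the members and 10 over all promoters. The letters ACGTG and GCGTG, the core of the HIF response element, were searched on both strands. The E-box CACGTG contains ACGTG, so the counts overlap. ACGTG was present in 13 of 33 members (39.4%) and in 17.7% of all promoters, GCGTG in 17 members (51.5%) and in 33.6%, and at least 1 of the pair in 23 members (69.7%) and in 43.6%. CACGTG was present in 6 members (18.2%) and in 6.57% of all promoters. Pgk1 held 2 matches to ACGTG, Ldha 2 to GCGTG and Slc16a1 2 to each, while Aldoc and Pgam2 held none. The 2 ACGTG matches of Slc16a1 are 1 CACGTG site read on both strands. Of the 12 members higher by 2-fold on day 4, 9 held either motif, and of the 18 others compared, 13 did. These are matches of letters only.

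Single-cell RNA-seq of 4 fPSC clones gave the members' levels cell by cell, as deposited counts. The paper describes these as paired-end Smart-seq2 data processed with Drop-seq tools. Of 182 cells in the tables, 181 with at least 500 genes were kept, with 1125 to 722865 counts per cell, and 1 cell name was carried by 2 columns with different counts, both of which were kept. Counts were summed per clone, and the spread is given over the 4 clones. Ldha was found in all 181 cells, at 1688 ± 252 CPM (counts scaled to the clone's total; SD, n = 4). Pkm was at 782 ± 54 CPM in 95.0% of cells, Aldoa at 706 ± 84 CPM in 94.5% and Gapdh at 617 ± 207 CPM in 96.1%. The members together made up 0.506% to 0.638% of counts in a clone.

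Hexokinase, lactate dehydrogenase and the Pfkl and Pfkp pair had the same order in the clones as in the bulk fPSC libraries. Hk2 was at 302 ± 70 CPM in 78.5% of cells and Hk1 at 6.74 ± 5.93 CPM in 9.94%, and the lowest clone for Hk2, at 210 CPM, was above the highest for Hk1, at 14.9 CPM. Ldhb was at 118 ± 59 CPM against 1688 CPM for Ldha, and Pfkl at 49.7 ± 10.8 CPM against 15.2 ± 4.2 CPM for Pfkp. Pdk4 had 2 counts and Pklr 3 counts in all cells together, each in 1 cell (0.552%). Slc16a1 and Slc16a3 were at 175 ± 53 and 119 ± 46 CPM. The bulk fPSC means had the other order, 60.3 FPKM for Slc16a1 and 125.5 FPKM for Slc16a3. In ROSAmTmG P12 alone, Slc16a1 was the higher of the pair, at 52.9 and 50.2 FPKM. A few members were much lower beside the others than in bulk, among them Pgk1 at 17.9 ± 9.9 CPM and Pgam1 at 6.16 ± 1.70 CPM, genes whose bulk levels in fPSCs were at least 171 and 332 FPKM. The 2 scales differ, and the cause of this difference was not tested. Pgam2 and Eno2 were not listed in the clone tables.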

How the data were processed

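For 19 libraries the authors deposited FPKM from Cufflinks 2.1.1, after trimming (cutadapt 1.11) and alignment to mm9 (NCBIM37) with TopHat2 2.1.1. No read counts are given for these libraries, so depth is unknown. For ChIP-seq the deposited values are RPKM signal in 100-bp bins, and for MethylC-seq the authors gave a methylation fraction per 100-bp window, without coverage. Per the study's methods ChIP-seq replicates were combined for later steps, and for MethylC-seq this is not given in the sources used here. Single-cell tables hold deposited counts per gene and cell. The authors' own tests used DESeq2, which needs counts, so limma 3.58.1 (R 4.3.3, trend option) was run on log2(FPKM + 1). Of 23608 entries, 4 with a repeated symbol were left out, and the 12513 genes reaching 1 FPKM in 2 or more libraries were fitted over mESCs, EpiLCs, EpiSCs and fPSCs, with Benjamini-Hochberg adjustment over all of them. Single libraries were compared by a fold of 2. All members were accounted for, and values per library were given for members called with a log2 change of at least 1. Promoter values are means within 1000 bp of the start, with at least 3 windows for methylation, and coordinates are those of GENCODE vM1. No library was a duplicate of another. The fit was tested on simulated data, where 55.0% to 61.5% of genes given a log2 change of 1.5 were recovered between groups of 2 libraries and 76.5% to 79.5% between fPSCs and a group of 2. Members and lists were chosen with earlier results of these data known. Alternatives were another pseudocount, no filter, other scalings, fewer groups, 1 deposit, and leaving out each library.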

Additional observations from a re-analysis of the deposited data

Results flagged for a closer look

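Among the 7 long-term fPSC libraries, 1 library stood apart from the nearest by more than Dixon's 95% critical value of 0.568 for 5 of 29 members tested. For normally distributed values chance alone gives about 1 such case in 20. FPKM were used without transformation, most of the flagged values come from the same library, 46C P24, and no count was made over all genes. The 5 of 29 can therefore not be weighed against 1 in 20. Slc2a3 (214.549 FPKM, next 80.6), Gapdh (2408.707 FPKM, next 1842) and Pdk1 (30.732 FPKM, next 13.9) were high and Pfkm (15.399 FPKM, next 21.0) was low in 46C P24. Hif1a (23.107 FPKM, next 34.3) was low in P10. Without 46C P24, the number of members called was 15 against mESCs, 9 against EpiSCs and 5 against EpiLCs, and 14, 8 and 2 with it. Over all genes the counts were 5173, 4035 and 1823 without it, and 5047, 4041 and 1728 with it.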

How the results depend on the processing

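Among the alternative values of single members' calls, 717 kept direction and call, 112 kept direction only and 0 changed sign, and 33 of 66 calls held throughout. Without the filter on low values, 4 members were called between EpiSCs and EpiLCs (9 as reported), 5 between fPSCs and EpiSCs (8 as reported) and 3 between the deposits (6 as reported), with more genes tested. Over all genes the counts were then 4114, 3506 and 2626 (4488, 4041 and 3246 as reported). Between fPSCs and EpiLCs, 4 members were called after upper-quartile scaling, 6 with the first deposit only, of which 1 was shared with the 2 reported, and 4 with the second only. Of all genes, 1808, 3178 and 2648 were called (1728 as reported). Leaving out 1 library gave 8 to 11 members for EpiLCs against mESCs, 9 to 12 for EpiSCs against mESCs, 3 to 4 for EpiSCs against EpiLCs, 10 to 15 for fPSCs against mESCs, 2 to 9 for fPSCs against EpiSCs, 0 to 5 for fPSCs against EpiLCs and 4 to 8 between the deposits, with a lone remaining library assumed to vary like the other groups. For the fPSCs and EpiLCs, the 0 came without either EpiLC library, when 865 and 890 genes were called. The Epiblastoid median from day 2 to day 3 was -0.27 after upper-quartile scaling and -0.21 as TPM (-0.06 as reported). Methylated member promoters numbered 15 above 0.2 and 8 at the 5′-most start (3 as reported), and those with H3K27me3 numbered 3 above the 75th percentile and 2 at the 5′-most start (1 as reported). The causes were not tested. The replicate numbers of mESCs, EpiLCs and EpiSCs share only a number (correlations of deviations 0.20, -0.20 and -0.13). With the replicate block 14, 16 and 10 members were called for EpiLCs against mESCs, EpiSCs against mESCs and EpiSCs against EpiLCs. Over all genes the block gave 4107, 6685 and 5196 calls (3706, 5980 and 4488 as reported). The pairing of EpiSCs was also crossed, a choice made after seeing the data, as was the 5′-most start. EpiSCs then had 20 members called against mESCs and 13 against EpiLCs, beside 7059 and 5832 of all genes. The depth of the FPKM libraries is unknown, and 2 libraries per group limit what could be called.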

Other observations

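Replicates of 1 group lay far apart for some members. Eno1, the main enolase, was at 393 and 1185 FPKM in the 2 EpiLC libraries, 403 and 817 in EpiSCs, 1058 and 607 in mESCs and 345 to 1203 in fPSCs, and it was called in no comparison. Pfkl was at 105 and 50.8 FPKM in mESCs and 44.7 and 70.1 in EpiLCs.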
